A study of Mus musculus with 23 samples.

Results

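Glycolysis and lactate export are represented here by 10 genes, Slc2a1, Hk1, Hk2, Pfkp, Pfkfb3, Pgk1, Pkm, Ldha, Ldhb and Slc16a1. They are a fixed list of symbols, chosen with earlier results of these data known. They were matched by Ensembl ID through a GRCm38 annotation, and all 10 had a row among the 38293 genes of the count files. All 10 also passed the filter on low counts, with 165 counts or more in every library, and so stood among the 16087 genes tested. RNA was measured in 23 libraries of primary astrocytes, the glial cells that surround neurons and blood vessels, from the neocortex of mice at postnatal day 3. The mice had a hybrid background (BALB/c+C57BL/6 together with 129/OLa+129/Sv+), the cultures were grown for 7 days, and the submitters state that over 95% of the cells were astrocytes. All groups, the controls too, spent 24 h in medium with 0.1% TH-deprived serum, which is serum without thyroid hormone.

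The groups were 24 h T3 (10 nM, 3 libraries), 24 h control (4), 6 h CHX+T3 (4), 6 h CHX without T3 (4), 6 h T3 (4) and 6 h control (4). T3, or triiodothyronine, is the thyroid hormone that binds nuclear receptors, and the time counts the hours from its addition to harvest. CHX is read here as cycloheximide, which blocks the elongation step of protein synthesis. It was given at 8 µg/ml, 30 min before T3. The labels do not say whether replicates came from separate pups or cultures, so the p-values reflect how far these libraries differ among themselves, and that spread may be technical.

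Glycolysis breaks glucose down to pyruvate in the cytosol. Glucose enters astrocytes through transporters such as GLUT1, is trapped by hexokinase and is committed to the pathway by phosphofructokinase, whose strongest activator is fructose 2,6-bisphosphate. Lactate dehydrogenase converts pyruvate and lactate into each other, and monocarboxylate transporters carry lactate across the membrane. Astrocytes are known for active glycolysis and for releasing lactate that neurons can take up. The comparisons ask which of these steps differ in mRNA level with T3, and whether they still do so when protein synthesis is blocked.

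Of the 10 genes, 4 rose after 24 h of T3 whichever single library was left out: Hk2, Pfkfb3, Pfkp and Slc16a1. Their RefSeq promoter windows (GRCm38.p6, mostly bases before a transcription start, read along the gene's strand) are shown for that reason alone. Capitals mark ACGTG on either strand, which reads CACGT when it lies on the other strand and CACGTG when both strands hold it. ACGTG is the core of the element bound by hypoxia-inducible factors, and CACGTG is the canonical E-box.
Hk2, chr6:82774405-82774704, minus strand: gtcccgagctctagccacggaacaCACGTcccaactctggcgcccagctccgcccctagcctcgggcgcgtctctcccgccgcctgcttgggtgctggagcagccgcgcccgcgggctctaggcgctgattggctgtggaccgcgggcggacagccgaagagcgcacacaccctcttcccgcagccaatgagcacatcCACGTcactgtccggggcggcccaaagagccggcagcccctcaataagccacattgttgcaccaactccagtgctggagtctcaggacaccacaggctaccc
Pfkfb3 first start, chr2:11553880-11554179, minus strand: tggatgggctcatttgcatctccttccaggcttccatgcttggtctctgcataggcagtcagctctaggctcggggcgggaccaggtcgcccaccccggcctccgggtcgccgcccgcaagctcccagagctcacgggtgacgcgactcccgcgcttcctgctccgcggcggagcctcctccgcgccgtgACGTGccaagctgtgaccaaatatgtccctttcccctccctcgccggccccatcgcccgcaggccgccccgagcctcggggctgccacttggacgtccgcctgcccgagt
Pfkfb3 second start, chr2:11502041-11502340, minus strand: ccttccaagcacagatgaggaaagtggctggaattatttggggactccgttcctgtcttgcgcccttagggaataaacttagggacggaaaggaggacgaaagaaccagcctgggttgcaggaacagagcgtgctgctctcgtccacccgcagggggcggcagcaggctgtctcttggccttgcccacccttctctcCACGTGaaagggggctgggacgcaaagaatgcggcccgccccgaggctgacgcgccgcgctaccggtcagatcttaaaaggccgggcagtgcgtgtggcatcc
Pfkp, chr13:6648722-6649021, minus strand: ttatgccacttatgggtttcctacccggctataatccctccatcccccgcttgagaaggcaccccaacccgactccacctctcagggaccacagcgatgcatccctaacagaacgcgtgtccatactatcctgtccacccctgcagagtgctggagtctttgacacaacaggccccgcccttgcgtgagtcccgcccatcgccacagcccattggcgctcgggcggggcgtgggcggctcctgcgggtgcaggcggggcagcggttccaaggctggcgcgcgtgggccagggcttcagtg
Slc16a1, chr3:104638414-104638713, plus strand: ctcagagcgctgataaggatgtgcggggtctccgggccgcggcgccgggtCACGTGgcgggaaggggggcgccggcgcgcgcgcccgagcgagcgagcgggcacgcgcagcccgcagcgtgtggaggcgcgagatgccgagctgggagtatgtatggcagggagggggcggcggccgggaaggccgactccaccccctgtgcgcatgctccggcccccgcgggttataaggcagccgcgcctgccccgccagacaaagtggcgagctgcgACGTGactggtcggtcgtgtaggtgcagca

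The Hk2 window holds ACGTG at 2 places, the Pfkfb3 windows hold it once and as 1 CACGTG, the Slc16a1 window holds CACGTG and a further ACGTG, and the Pfkp window holds neither. Of all 10 genes, 8 had ACGTG in at least 1 window, against 21.8% of 27025 genes searched in the same way. They include Slc2a1, Hk1, Pgk1, Pkm and Ldha, whose windows are not shown, so ACGTG was not limited to the genes shown. Of the members' 14 windows 9 held it, against 19.6% of all windows. The shares given here were not matched for GC content. CACGTG stood in windows of 3 of the 10 genes, against 8.09% of all genes. AGGTCA, the half-site bound by thyroid hormone receptors, was searched on both strands and stood in windows of 2 genes, Pkm and Ldhb, against 18.1% of all genes. In none of the 10 was it repeated in the same direction with a gap of 4 bases, which 0.0148% of all genes had. A match describes letters only, and windows further from the start were not searched.

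Libraries held 13843040 to 22997873 gene counts. Alignments that were not unique made up 30.7 to 42.3% of all counts and were left out of every gene. This touches members with near-identical copies: 53.9% of the 50-base words of Pgk1 transcripts also occur in other genes, as do 25.8% for Pkm, 21% for Ldhb and 9.26% for Ldha, while Hk2 and Slc16a1 share none. The levels of Pgk1, Pkm, Ldha and Ldhb are therefore uncertain. The libraries with the largest share of such alignments in their group were 24 h T3 replicate 1 (42.3%), 6 h T3 replicate 2 (39.6%) and 6 h control replicate 4 (42.1%), and each was also the highest of its group for Pkm, Ldha and Ldhb. In the other 3 groups these libraries were 24 h control replicate 4 (39.1%), 6 h CHX+T3 replicate 2 (32.8%) and 6 h CHX replicate 1 (32.9%). None of them was the highest of its group for Pkm or Ldha. For Ldhb, 24 h control replicate 4 and 6 h CHX replicate 1 were the highest of their groups, and 6 h CHX+T3 replicate 2 was not. The kit marked no strand, and transcripts of Slc2a1, Hk1 and Pfkp overlap Gm12868, Hk1os and Pitrm1 on the other strand, so reads of such a pair cannot be told apart. All 6 h T3 and 6 h control libraries and 6 h CHX replicates 1 to 3 carry the token of lane 5, 24 h T3 replicate 3 that of lane 7, and the other libraries that of lane 6.

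As a check of T3, the known target genes Klf9 and Hr rose in every T3 comparison (Hr by 4.26, 3.73 and 2.85 log2 at 6 h, at 24 h and with CHX), and Dio3 rose at 6 h and 24 h (3.60 and 5.10) but did not pass with CHX (adjusted p = 0.203). The astrocyte label was checked against markers. All 9 astrocyte markers averaged at least 1 CPM in every group, where CPM is the count scaled to a fixed library size after TMM scaling. Their summed level was 9369 to 10318 CPM in 24 h T3 against 9335 to 11072 CPM in 24 h control, 7316 to 7794 CPM in 6 h CHX+T3 against 7631 to 9063 CPM in 6 h CHX, and 11551 to 11800 CPM in 6 h T3 against 10170 to 10875 CPM in 6 h control. The 6 h T3 range lies above that of its control.

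Markers of other cells were present at lower levels. Over all libraries the summed level was 448 to 885 CPM for 9 oligodendrocyte lineage markers, led by Olig1 and Olig2, 131 to 221 CPM for 9 neuron markers, 326 to 806 CPM for 10 vascular and meningeal markers and 33.6 to 104 CPM for 10 microglia markers. Mog, Mag, Slc17a7 and Cldn5 were at 0 in at least 1 library, and Cldn5 in all 4 libraries of 6 h CHX. For T3 at 24 h the sums were 612 to 664 against 627 to 854 CPM (oligodendrocyte lineage), 139 to 163 against 148 to 206 CPM (neuron), 427 to 489 against 505 to 635 CPM (vascular and meningeal) and 57.6 to 65.6 against 53.8 to 104 CPM (microglia), T3 before control. The vascular and meningeal sums do not overlap at 24 h. For T3 at 6 h they were 732 to 820 against 768 to 885, 201 to 221 against 175 to 215, 480 to 635 against 495 to 806 and 63.6 to 73.4 against 53.3 to 64.4 CPM in the same order of lists. With CHX they were 448 to 478 against 459 to 515, 131 to 147 against 150 to 192, 412 to 519 against 326 to 597 and 33.6 to 39.9 against 37.3 to 55.6 CPM, CHX+T3 before CHX. Their part in the members' changes was not tested.

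**Figure D1:**
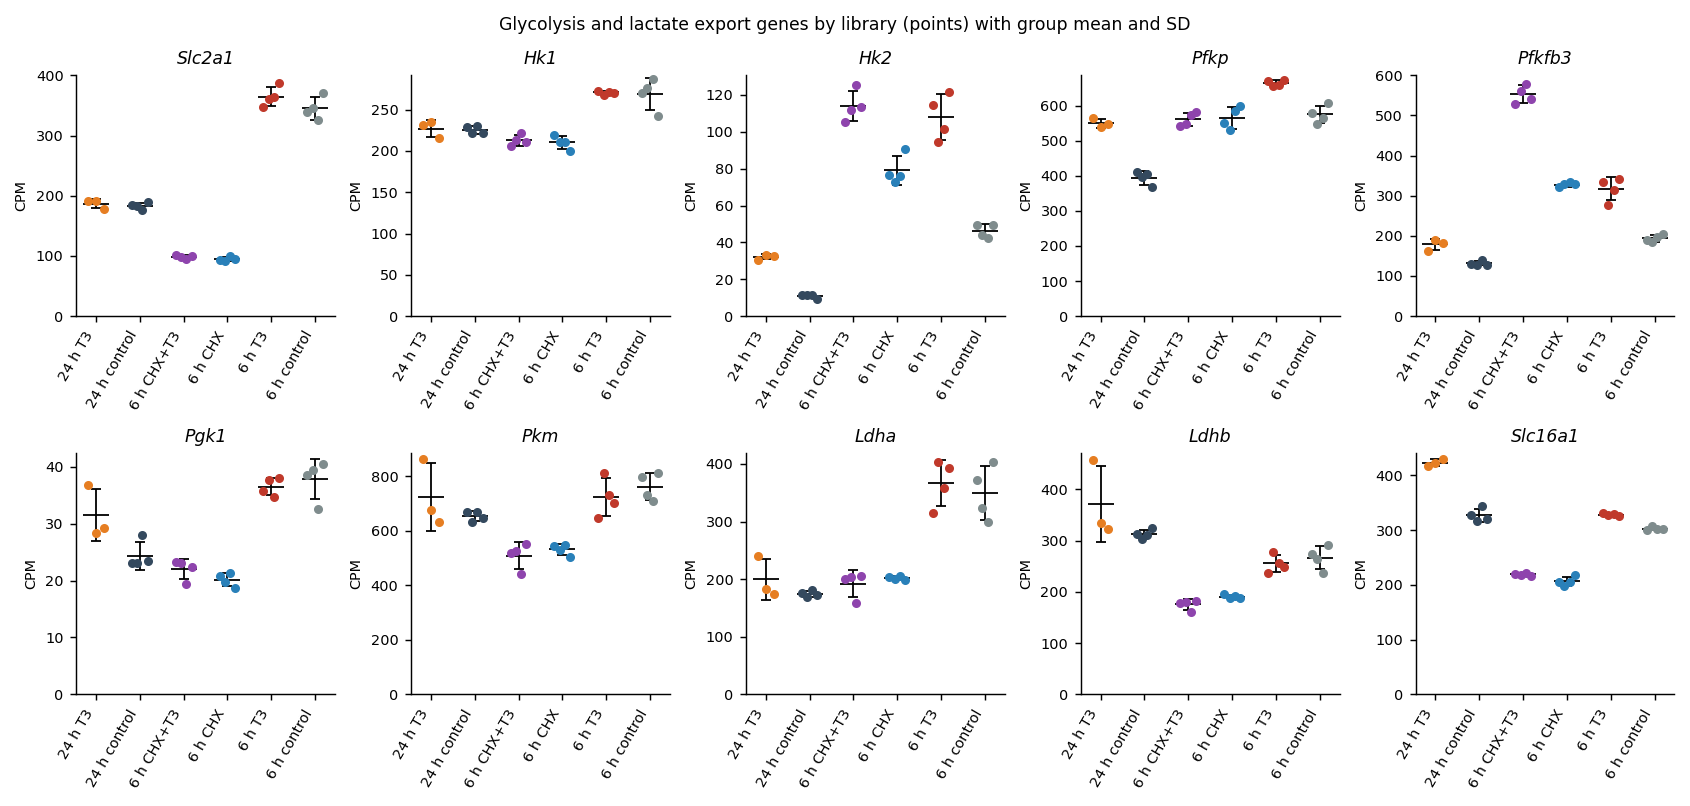
Level of each of the 10 genes in CPM (y axis, from 0) in every library (points), by group, with the group mean and SD (black). Hk2 and Pfkfb3 are higher in all T3 libraries than in the matching libraries without T3, and Slc2a1 is at 91.3 to 102 CPM in all libraries with CHX.

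Across the 6 groups, Hk2 varied most. Its highest group mean, in 6 h CHX+T3, was 10.5 times its lowest, in 24 h control, while the span was 4.19 times for Pfkfb3, 3.85 times for Slc2a1 and 1.29 times for Hk1, the least variable member. Per kilobase of exon, Ldhb and Pkm had the highest levels in 6 h control (170 ± 14.5 and 152 ± 9.89 CPM per kb, SD, n = 4) and Hk2 the lowest (7.74 ± 0.623 CPM per kb, SD, n = 4). In 24 h control these levels were 199 ± 5.43 CPM per kb for Ldhb, 131 ± 3.58 for Pkm and 1.83 ± 0.168 for Hk2 (SD, n = 4). The order depends on the exon length, which counts every annotated exon base, from 1570 for Ldhb to 13401 for Pfkp. In CPM alone, Pkm (761) and Pfkp (575) had the highest means in 6 h control, and Ldhb had 267. Pgk1 (37.8) was then below Hk2 (46.2). That order is uncertain, since alignments that were not unique were left out. Other genes hold 53.9% of the 50-base words of Pgk1 and none of those of Hk2.

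After 6 h of T3, Hk2, Pfkfb3 and Pfkp rose, 3 of the 10 genes, where 3.77% of all genes tested were called in either direction (2.61% higher). Slc2a1, Hk1, Pgk1, Pkm, Ldha, Ldhb and Slc16a1 were not called. A gene was called at an adjusted p under 0.05 in edgeR's quasi-likelihood F test with Benjamini-Hochberg adjustment over all genes tested. In cultures, more RNA per cell and more cells of a type that expresses the gene cannot be told apart. The median log2 fold change was 0.07 for the 10 genes and 0.003 for all genes tested.

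Hk2, the insulin-responsive hexokinase of muscle and fat that is also found in many dividing cells, lies on GRCm38 chromosome 6, 82725025 to 82774454 (ENSMUSG00000000628). It had 114, 94.2, 102 and 122 CPM in 6 h T3, against 49.2, 43.8, 42.2 and 49.5 CPM in 6 h control. Every T3 library was higher than every control library. Means of 108 ± 12.4 and 46.2 ± 3.72 CPM (SD, n = 4 each) differed by 1.23 ± 0.08 log2 (SE, adjusted p = 3.9e-10), and 0.665% of genes tested changed by more in size.

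Pfkfb3 encodes the enzyme that makes fructose 2,6-bisphosphate with high kinase activity, and lies on chromosome 2, 11471433 to 11554077 (ENSMUSG00000026773). It had 335, 278, 315 and 341 CPM in 6 h T3, against 188, 184, 197 and 204 CPM in 6 h control. The groups did not overlap, and the log2 fold change was 0.71 ± 0.06 (SE, adjusted p = 1.56e-08). Pfkp, the platelet-type catalytic subunit of phosphofructokinase on chromosome 13, 6579768 to 6648777 (ENSMUSG00000021196), had 669, 656, 657 and 673 CPM in 6 h T3, against 577, 548, 565 and 607 CPM in 6 h control. Its increase was small, at 0.21 ± 0.05 log2 (SE, adjusted p = 0.0102), though again without overlap. The adjusted p of Pfkp was 0.0546 without 6 h control replicate 2 and 0.23 with the trend of gene length and GC content removed.

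Slc16a1, the lactate transporter MCT1 on chromosome 3, 104638668 to 104658462 (ENSMUSG00000032902), had 331, 328, 329 and 325 CPM in 6 h T3, against 301, 307, 303 and 302 CPM in 6 h control. All T3 libraries were higher, as in 6.71% of genes tested, but the log2 fold change of 0.12 ± 0.04 did not pass (SE, adjusted p = 0.107). It was called by DESeq2 (0.11 ± 0.03 log2, adjusted p = 0.032).

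The glucose transporter gene Slc2a1 (GLUT1; chromosome 4, 119108711 to 119137983; ENSMUSG00000028645) had 348, 360, 365 and 387 CPM in 6 h T3, against 338, 346, 327 and 371 CPM in 6 h control. The groups overlapped, and the 95% interval of the log2 fold change was −0.02 to 0.18. Hk1, the hexokinase that most brain cells use (chromosome 10, 62268855 to 62379908; ENSMUSG00000037012), had 268 to 273 CPM in 6 h T3, against 242 to 287 CPM in 6 h control, with an interval of −0.09 to 0.11. Both intervals exclude a change as large as that of Pfkfb3. For the later steps the log2 fold changes at 6 h were −0.05 ± 0.09 for Pgk1, −0.07 ± 0.08 for Pkm, 0.07 ± 0.10 for Ldha and −0.06 ± 0.08 for Ldhb (SE), and their groups overlapped.

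**Figure D2:**
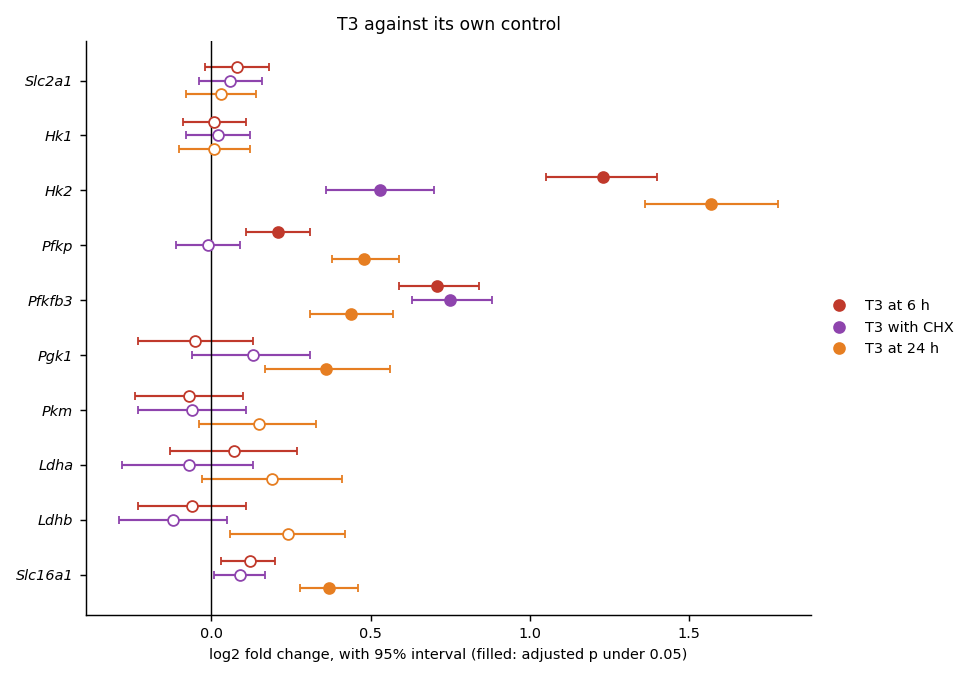
Log2 fold change of each gene with T3 against its own control (x axis), with its 95% interval, at 6 h, at 6 h with CHX and at 24 h. Filled points passed an adjusted p of 0.05. Hk2 (1.23, 0.53 and 1.57) and Pfkfb3 (0.71, 0.75 and 0.44) are filled in all 3 comparisons, and the intervals of Slc2a1 and Hk1 include 0 in each.

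After 24 h of T3, 5 of the 10 genes rose and none fell, where 7.09% of all genes tested were called in either direction (4.41% higher, 2.68% lower). They were Hk2, Pfkp, Pfkfb3, Slc16a1 and Pgk1, while Slc2a1, Hk1, Pkm, Ldha and Ldhb were not called. The 24 h libraries are not shared with the 6 h comparison. The median log2 fold change was 0.30 for the 10 genes and 0.004 for all genes tested. Without 24 h T3 replicate 1 the members' median was 0.16, and 4 of them were called.

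Hk2 had 30.6, 33.4 and 32.9 CPM in 24 h T3, against 11.2, 11.6, 11.4 and 9.42 CPM in 24 h control. The groups were far apart relative to the spread within them. The means were 32.3 ± 1.48 (SD, n = 3) and 10.9 ± 1.00 CPM (SD, n = 4), which differ by 1.57 ± 0.10 log2 (SE, adjusted p = 7.97e-11). Both levels were below those of the matching 6 h groups.

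Pfkp had 564, 538 and 547 CPM in 24 h T3, against 410, 395, 404 and 367 CPM in 24 h control (0.48 ± 0.05 log2, SE, adjusted p = 3.71e-07). Pitrm1, whose exons overlap Pfkp on the other strand, had a log2 fold change of 0.03. Pfkfb3 had 163, 190 and 183 CPM in 24 h T3, against 131, 128, 140 and 129 CPM in 24 h control (0.44 ± 0.06 log2, SE, adjusted p = 4.22e-05). Slc16a1 had 417, 422 and 430 CPM in 24 h T3, against 327, 316, 344 and 320 CPM in 24 h control (0.37 ± 0.04 log2, SE, adjusted p = 1.16e-06). In none of these genes did the groups overlap, with T3 above control as in 8.13% of genes tested, and each was called whichever single library was left out.

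Pgk1, phosphoglycerate kinase (chromosome X, 106187100 to 106203699; ENSMUSG00000062070), had 36.7, 28.4 and 29.3 CPM in 24 h T3, against 23.02, 23.02, 27.97 and 23.35 CPM in 24 h control. Its log2 fold change was 0.36 ± 0.09 (SE, adjusted p = 0.0168). The call was lost without 24 h T3 replicate 1 (0.24 ± 0.09, adjusted p = 0.146), when only the 24 h groups were fitted (0.184) and without 24 h control replicate 1, 2 or 4 (adjusted p = 0.0521, 0.0783 and 0.051). Most of its transcript words are shared with other genes, as given above, and its mean was 20.1 to 37.8 CPM over the groups.

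The enzymes at the end of the pathway followed 24 h T3 replicate 1. Ldhb, the heart-type lactate dehydrogenase subunit (chromosome 6, 142490249 to 142507957; ENSMUSG00000030246), had 457, 334 and 322 CPM in 24 h T3, against 312, 304, 311 and 325 CPM in 24 h control. Pkm, pyruvate kinase (chromosome 9, 59656368 to 59679375; ENSMUSG00000032294), had 864, 677 and 631 CPM in 24 h T3, against 633 to 670 CPM in 24 h control. Ldha, the muscle-type subunit (chromosome 7, 46841475 to 46855627; ENSMUSG00000063229), had 241, 184 and 175 CPM in 24 h T3, against 168 to 182 CPM in 24 h control.

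None of these enzymes was called. Their log2 fold changes were 0.24 ± 0.09 for Ldhb (adjusted p = 0.0956), 0.15 ± 0.09 for Pkm and 0.19 ± 0.11 for Ldha (SE), and without that library they were 0.07 ± 0.07, −0.00 ± 0.08 and 0.04 ± 0.10. Ldhb was called without 24 h T3 replicate 3 (adjusted p = 0.0198) or replicate 2 (0.0472), with lane as a covariate (0.0219), where the T3 effect rests on T3 replicates 1 and 2, and after correction for length and GC content (0.16 log2, adjusted p = 0.0213). Gm5514, a pseudogene that shares words with Ldhb, had a log2 fold change of 0.24 as well. Slc2a1 (187 ± 7.84 against 183 ± 5.42 CPM, SD, n = 3 and 4) and Hk1 (227 ± 10.5 against 225 ± 4.45 CPM) did not differ between 24 h T3 and 24 h control beyond their spread, with 95% intervals of −0.08 to 0.14 and −0.10 to 0.12 log2.

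The difference between the T3 effects at 24 h and 6 h was tested itself, and 1 of the 10 genes passed, where 0.839% of all genes tested did. Slc16a1 had a larger effect at 24 h, by 0.26 ± 0.06 log2 (SE, adjusted p = 0.0323). This call was lost when any 1 of 9 libraries was left out, with adjusted p between 0.052 and 0.112, and when only the 24 h and 6 h groups without CHX were fitted (0.125). The difference was 0.27 ± 0.07 for Pfkp (adjusted p = 0.0615), 0.34 ± 0.13 for Hk2 (0.22), −0.27 ± 0.09 for Pfkfb3 (0.147) and 0.41 ± 0.13 for Pgk1 (0.13). That of Pfkp passed in 4 of 33 alternatives, among them DESeq2 (0.00399) and lane as a covariate (0.0433). That of Pfkfb3 passed in 1 of 33, without 6 h T3 replicate 2 (0.0397). Lane coincides with time, and each of the effects compared set libraries of the same time against each other.

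With protein synthesis blocked, T3 was followed by higher Pfkfb3 and Hk2 at 6 h. These were 2 of the 10 genes, where 1.29% of all genes tested were called in either direction (1.16% higher). Pfkfb3 had 528, 562, 579 and 542 CPM in 6 h CHX+T3, against 321, 328, 333 and 328 CPM in 6 h CHX, or 0.75 ± 0.06 log2 higher (SE, adjusted p = 6.39e-09). Its groups were far apart, and its T3 effect differed from that without CHX by 0.04 log2, with a 95% interval of −0.13 to 0.21.

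Hk2 had 105, 112, 125 and 113 CPM in 6 h CHX+T3, against 76.6, 72.7, 75.9 and 90.9 CPM in 6 h CHX. The groups did not overlap, with CHX+T3 above CHX as in 7.16% of genes tested, and the log2 fold change was 0.53 ± 0.08 (SE, adjusted p = 0.00034). The 3 CHX libraries of lane 5 had 72.7 to 76.6 CPM, and CHX replicate 4, on lane 6 with all CHX+T3 libraries, had 90.9 CPM. With lane as a covariate the change of Hk2 was 0.33 ± 0.12 (adjusted p = 0.156), where all CHX+T3 libraries are in effect set against CHX replicate 4 alone, and without CHX replicate 4 it was 0.60 ± 0.08 (adjusted p = 0.000106). Pfkfb3 was at 0.75 ± 0.10 log2 with lane (adjusted p = 0.000141) and was called in all 33 alternatives, with changes of 0.71 to 0.78.

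The T3 effect on Hk2 was smaller with CHX than without it, by 0.70 ± 0.12 log2 (a difference of −0.70, SE, adjusted p = 0.00506). It was the only 1 of the 10 genes for which this difference passed, where 1.22% of all genes tested did (0.634% with a smaller or more negative effect in CHX, 0.584% the other way). The difference ran from −0.90 to −0.62 and passed in all 33 alternatives. Its level was 114 ± 8.28 CPM in 6 h CHX+T3 and 108 ± 12.4 CPM in 6 h T3 (SD, n = 4 each), and it was higher in 6 h CHX than in 6 h control (79.0 ± 8.10 and 46.2 ± 3.72 CPM).

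Pfkp had a log2 fold change with T3 of −0.01 ± 0.05 in CHX and 0.21 ± 0.05 without it. The difference of −0.22 ± 0.07 did not pass in the fit used here (adjusted p = 0.101), while it passed in DESeq2 (0.0311) and with lane as a covariate (0.0401). The other 7 genes, from Slc2a1 to Slc16a1, had T3 effects in CHX between −0.12 (Ldhb) and 0.13 (Pgk1) log2, none of which passed. All 6 h CHX+T3 libraries had less Ldhb than all 6 h CHX libraries, as in 5.17% of genes tested.

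CHX alone was followed by lower levels of most glycolysis genes and by higher Hk2 and Pfkfb3. Of the 10 genes, 7 fell and 2 rose, against 30.6% lower and 37.0% higher (67.5% in all) among all genes tested. A share of called genes this large makes the count itself no result about the members. The median log2 fold change was −0.50 for the members and 0.063 for all genes tested. Marker sums given above were also lower in 6 h CHX than in 6 h control without overlap for astrocytes, with 6 of 9 markers lower, and for the oligodendrocyte lineage (459 to 515 CPM against 768 to 885 CPM), with 3 of 7 markers tested lower and 2 higher. Of 10 microglia markers 3 were lower (Itgam, Cx3cr1 and Cd68). Their part in the members' falls was not tested.

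Slc2a1 fell most. It had 92.8, 91.3, 99.8 and 94.6 CPM in 6 h CHX, against 338, 346, 327 and 371 CPM in 6 h control, at −1.87 ± 0.05 log2 (SE, adjusted p = 7.92e-20), and 3.80% of genes tested changed by more in size. Pgk1 had 18.7 to 21.3 CPM in 6 h CHX against 32.6 to 40.4 CPM in 6 h control (−0.91 ± 0.09 log2). Ldha had 198 to 205 CPM against 300 to 404 CPM (−0.79 ± 0.10). Slc16a1, with 198 to 218 CPM in 6 h CHX against 301 to 307 CPM in 6 h control, fell by 0.55 ± 0.04 log2.

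Smaller falls were measured for Pkm (−0.52 ± 0.08 log2), Ldhb (−0.48 ± 0.08) and Hk1 (−0.35 ± 0.05), all called. Alignments that were not unique made up 32.2 to 32.9% of all counts in 6 h CHX, against 37.3 to 42.1% in 6 h control. The part of this difference in the falls of Pgk1, Pkm, Ldha and Ldhb was not tested. Pfkfb3 had 321 to 333 CPM in 6 h CHX against 184 to 204 CPM in 6 h control (0.76 ± 0.06 log2). Hk2 had 72.7 to 90.9 CPM in 6 h CHX against 42.2 to 49.5 CPM in 6 h control (0.78 ± 0.08 log2). Pfkp, at −0.02 ± 0.05 log2, was the member that did not pass.

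With T3 present in both groups, CHX was followed by 8 lower members and 1 higher one, against 31.0% lower and 36.3% higher (67.3% in all) among all genes tested. As with CHX alone, a share this large makes the count itself no result about the members. Slc2a1 was at −1.89 ± 0.05 log2, Ldha at −0.93 ± 0.10, Pgk1 at −0.73 ± 0.09 and Pfkfb3 at 0.80 ± 0.06 (SE). Pfkp now fell by 0.24 ± 0.05 log2, with 561 ± 18.6 CPM in 6 h CHX+T3 and 664 ± 8.64 CPM in 6 h T3 (SD, n = 4 each). Hk2 did not pass (0.08 ± 0.08 log2, adjusted p = 0.396). This comparison sets lane 6 against lane 5, and it shares no library with that of CHX alone. Alignments that were not unique made up 30.7 to 32.8% in 6 h CHX+T3, against 36.2 to 39.6% in 6 h T3. Marker sums given above were also lower in 6 h CHX+T3 without overlap for astrocytes, the oligodendrocyte lineage, neurons and microglia. The vascular and meningeal sums overlapped. The part of these differences in the members' changes was not tested.

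**Figure D3:**
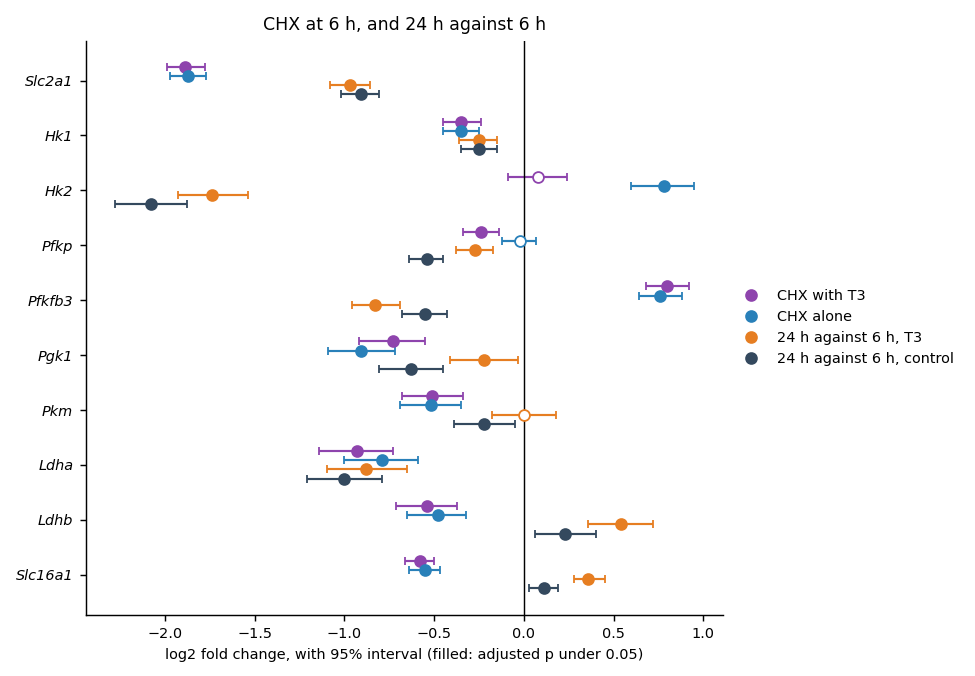
Log2 fold change (x axis) with its 95% interval for CHX against no CHX at 6 h, with and without T3, and for 24 h against 6 h, with T3 and in controls. Filled points passed an adjusted p of 0.05. Slc2a1 is lowest with CHX (−1.89 and −1.87), Hk2 is lowest at 24 h (−1.74 and −2.08), and Ldhb and Slc16a1 are higher at 24 h.

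Levels at 24 h differed from those at 6 h in controls and with T3 alike, with Hk2, Ldha and Slc2a1 lower at 24 h and Ldhb and Slc16a1 higher. In controls 8 of the 10 genes were lower at 24 h and 2 higher, against 28.4% lower and 28.2% higher (56.6% in all) among all genes tested. Of the members in T3, 7 were lower and 2 higher, against 28.2% lower and 29.3% higher (57.6% in all). Shares this large make the counts themselves no result about the members. All 24 h controls were on lane 6 and all 6 h controls on lane 5, so time and lane cannot be told apart here beyond a lane term that rests on CHX replicate 4 alone.

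Hk2 was lower by the most, at 10.9 ± 1.00 CPM in 24 h control and 46.2 ± 3.72 CPM in 6 h control (SD, n = 4 each), at −2.08 ± 0.10 log2 (SE, adjusted p = 3.23e-14). In T3 it was −1.74 ± 0.09. Ldha had 168 to 182 CPM in 24 h control against 300 to 404 CPM in 6 h control (95% interval of the log2 fold change −1.21 to −0.79), and Slc2a1 had 176 to 189 CPM against 327 to 371 CPM (−0.91 ± 0.05). Pgk1 (−0.63 ± 0.09), Pfkfb3 (−0.55 ± 0.06), Pfkp (−0.54 ± 0.05), Hk1 (−0.25 ± 0.05) and Pkm (−0.22 ± 0.08) were lower too.

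The 2 higher genes were Ldhb and Slc16a1. Lactate genes did not rise as a set, since Ldha, the other lactate dehydrogenase member, was lower in controls and in T3. Ldhb had 304 to 325 CPM in 24 h control against 237 to 291 CPM in 6 h control (0.23 ± 0.08 log2), and 322 to 457 CPM in 24 h T3 against 238 to 279 CPM in 6 h T3 (0.54 ± 0.09). Slc16a1 had 316 to 344 CPM in 24 h control against 301 to 307 CPM in 6 h control (0.11 ± 0.04), and 417 to 430 CPM in 24 h T3 against 325 to 331 CPM in 6 h T3 (0.36 ± 0.04). With lane as a covariate 6 members were called in controls, where Hk1 (adjusted p = 0.201), Pkm (0.585), Ldhb (0.203) and Slc16a1 (0.973) were not. In T3 with lane, Ldhb (0.66 ± 0.16) and Slc16a1 (0.25 ± 0.08) were called, and Pgk1 and Hk1 were not. Pgk1 (−0.22 ± 0.09 without lane, adjusted p = 0.0487) was called in 12 of 33 alternatives, and was at −0.15 without 24 h T3 replicate 2 (adjusted p = 0.223).

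Ratios within a library set isoenzymes side by side without the scaling between libraries. Per kilobase of exon, the level of Hk2 over that of Hk1 was 0.189, 0.204 and 0.219 in 24 h T3, against 0.0608 to 0.0746 in 24 h control. In 6 h CHX+T3 it was 0.730 to 0.806, against 0.492 to 0.649 in 6 h CHX, and in 6 h T3 it was 0.502 to 0.642, against 0.210 to 0.292 in 6 h control. Hk1 mRNA thus stayed above that of Hk2 in every library, and no T3 group overlapped its control.

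The ratio of Ldha to Ldhb differed most between the times. It was 0.256 ± 0.00520 in 24 h T3 (SD, n = 3) and 0.265 ± 0.00990 in 24 h control (SD, n = 4), 0.517 ± 0.0333 in 6 h CHX+T3 and 0.502 ± 0.00668 in 6 h CHX, and 0.681 ± 0.0498 in 6 h T3 and 0.620 ± 0.0359 in 6 h control (SD, n = 4 each). Each T3 group overlapped its control, and all 24 h libraries lay below all 6 h libraries. Ldhb stayed above Ldha per kilobase in every library. That order depends on the exon lengths used, 3310 bases for Ldha and 1570 for Ldhb. In CPM alone, the mean of Ldha was above that of Ldhb in every 6 h group (350 and 267 CPM in 6 h control). It was below that of Ldhb in both 24 h groups (175 and 313 CPM in 24 h control). No test was run on the ratios, since Hk2, Ldha and Ldhb were tested as genes.

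**Figure D4:**
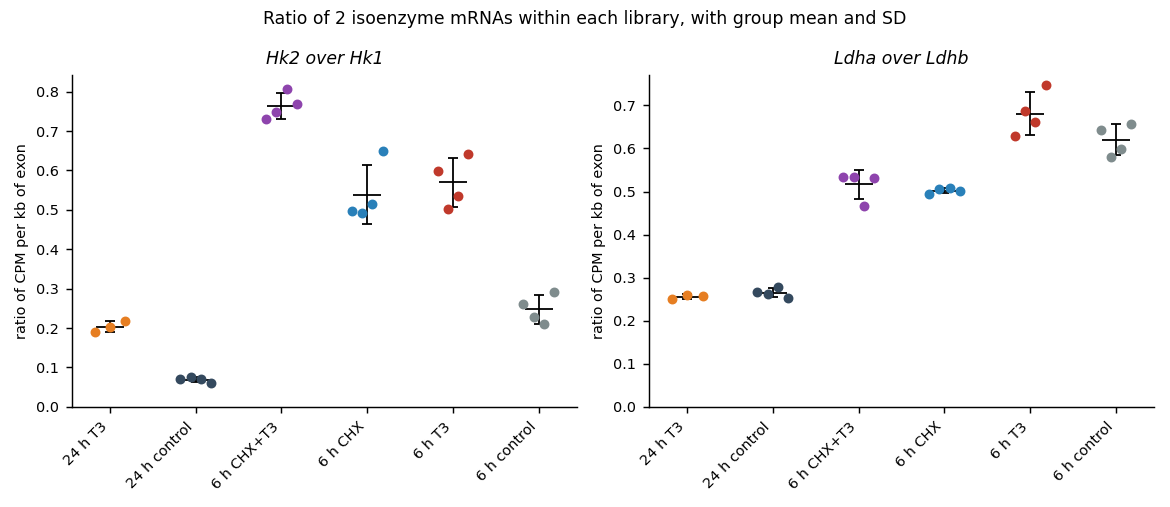
Ratio of Hk2 to Hk1 (left) and of Ldha to Ldhb (right), each as CPM per kilobase of exon, in every library (points) by group, with the group mean and SD. Hk2 over Hk1 is higher in each T3 group than in its control, and Ldha over Ldhb is 0.250 to 0.277 in all 24 h libraries.

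Other genes of the pathway were taken from lists outside the 10. For T3, 3.77% of all genes tested were called in either direction at 6 h, 7.09% at 24 h and 1.29% with CHX. A single call in a list this short is therefore no result about the list. Of 17 glycolysis enzymes tested, 1 rose after 6 h of T3, the liver-type phosphofructokinase gene Pfkl (0.24 ± 0.07 log2, adjusted p = 0.0392, not called without any 1 of 7 of the 8 libraries compared). After 24 h of T3, 4 rose and 1 fell: the muscle-type phosphofructokinase gene Pfkm (0.38 ± 0.05), the aldolase gene Aldoa (0.36 ± 0.08), the glucose phosphate isomerase gene Gpi1 (0.26 ± 0.06) and Pfkl (0.26 ± 0.07, named after its value was seen) rose, and the brain aldolase gene Aldoc fell by 0.32 ± 0.09 log2. Without 24 h T3 replicate 1, 2 rose and 1 fell, Gpi1 (0.15 log2, adjusted p = 0.117) and Pfkl were not called, and the median of the list was 0.05 log2 in place of 0.16. Aldoc was not called without any 1 of 4 libraries (24 h T3 replicate 2 or 3, or 24 h control replicate 2 or 4), with adjusted p of 0.0546 to 0.102. Without 24 h control replicates 2 and 4 together, an alternative chosen after the data had been seen, 1 rose and none fell. With CHX, 0 of the 17 were called for T3 by edgeR and 0 by DESeq2, and 3 had an unadjusted p under 0.05.

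The T3 effect on Pfkl was smaller with CHX than without it (a difference of −0.42 ± 0.10 log2, adjusted p = 0.0343), a call lost without any 1 of 10 libraries (adjusted p = 0.0517 to 0.0919). That on Pfkm was larger at 24 h than at 6 h (0.40 ± 0.07, adjusted p = 0.00749), and was not called without 24 h control replicates 2 and 4 (0.0933) or with only the groups compared (0.0527). Of 4 further enzymes that make or degrade fructose 2,6-bisphosphate, Pfkfb4 rose in all T3 comparisons, by 0.45 ± 0.11 log2 at 6 h, 0.53 ± 0.11 at 24 h and 0.69 ± 0.13 with CHX (adjusted p = 0.0204, 0.00189 and 0.00411). With lane as a covariate the last was 0.69 ± 0.22 (adjusted p = 0.075), and at 6 h the adjusted p was 0.0688 to 0.0747 without 6 h T3 replicate 3 or 6 h control replicate 2 or 4. Without 24 h control replicates 2 and 4 the adjusted p at 24 h was 0.0556.

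Among 11 other glucose and lactate transport genes tested, 1 rose with T3 at 6 h, where 3.77% of all genes tested were called. It was the monocarboxylate transporter gene Slc16a3, or MCT4 (0.76 ± 0.21 log2, adjusted p = 0.0447). The Slc16a3 call was lost without any 1 of 10 libraries, with adjusted p of 0.053 to 0.214. At 24 h 1 rose, where 7.09% of all genes tested were called. It was Bsg, which encodes basigin, the partner that brings MCT1 to the membrane (0.41 ± 0.09 log2, adjusted p = 0.00342, and 0.105 when only the 24 h groups were fitted). Bsg and Slc16a1 were thus both higher in 24 h T3 than in 24 h control.

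With CHX alone 10 of the 17 glycolysis enzymes were lower and 5 higher, against 30.6% lower and 37.0% higher among all genes tested. Gapdh (−1.78 ± 0.13 log2), Pfkl (−0.77 ± 0.07) and Gpi1 (−0.64 ± 0.06) were lower and the neuronal enolase gene Eno2 higher (1.38 ± 0.09). Slc16a3 fell by 2.18 ± 0.27 log2. At 24 h against 6 h in controls 9 of the 17 enzymes were lower and 5 higher, against 28.4% lower and 28.2% higher among all genes tested, with Pfkl (−0.53 ± 0.07) and Eno2 (−0.67 ± 0.09), and Slc2a3, the neuronal transporter GLUT3, was lower by 1.24 ± 0.07 log2.

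**Figure D5:**
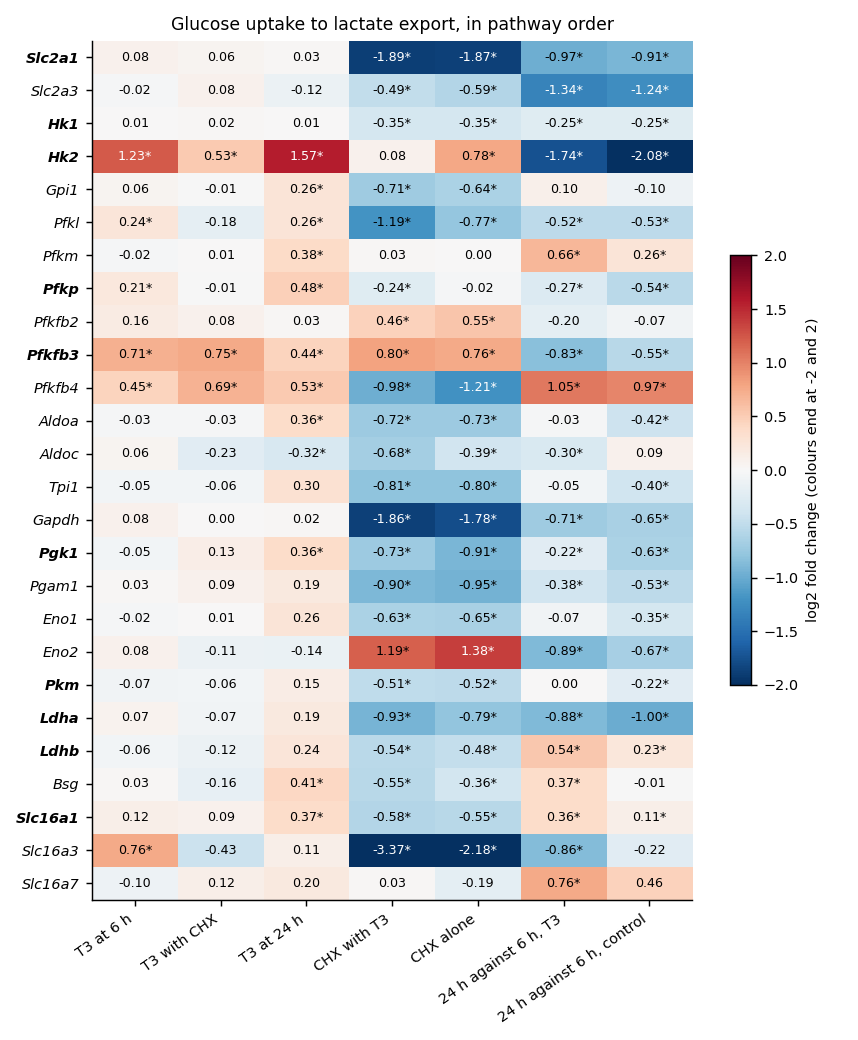
Log2 fold change (colour and number) for the 10 genes (bold) and other genes from glucose uptake to lactate export (rows, in pathway order) in 7 comparisons (columns), where an asterisk marks an adjusted p under 0.05. Hk2, Pfkfb3 and Pfkfb4 carry asterisks in all 3 T3 columns, and most rows are negative with CHX.

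Some members varied together over the 23 libraries. Pearson correlations of log2 CPM, given as a description since groups, lanes and scaling are shared, were 0.90 between Hk2 and Pfkfb3 and 0.88 between Hk2 and Pfkp, while Slc2a1 correlated at 0.91 with Hk1, 0.92 with Pgk1 and 0.85 with Pkm. Ldhb and Slc16a1 correlated at 0.91, and Pfkfb3 and Ldhb at −0.85. Slc16a1 correlated at −0.51 with Hk2, −0.70 with Pfkfb3 and −0.12 with Pfkp. Among 12864 protein-coding genes that averaged 1 CPM or more, those most like Hk2 were Tbc1d10a (0.958) and Pdgfb (0.956), and those most like Pfkfb3 were Stk17b (0.985) and Nr3c1 (0.984), the glucocorticoid receptor gene. For Slc2a1 they were Gpat4 and Gnb1 (0.994 each), for Slc16a1 Sulf1 (0.985) and Slc25a23 (0.973), for Pfkp Itga7 (0.960) and Plod2 (0.934), and for Hk1 Wbp1l (0.975) and Kif1c (0.968). The remaining members were nearest to Pdia3 and Tusc3 (Pgk1, 0.982 and 0.975), Taldo1 and Tpi1 (Pkm, 0.986 and 0.985), Arl6ip5 and Chmp7 (Ldha, 0.983 and 0.977), and D10Jhu81e and Adh5 (Ldhb, 0.992 and 0.989).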

How the data were processed

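RNA of 23 libraries was sequenced as 50-nucleotide single reads, using 200 ng of RNA and an unstranded kit, per the labels' protocols. The authors deposited raw counts per Ensembl gene, 1 file a library. The submitters' processing notes name bcl2fastq, FastQC, TopHat, Bowtie, HTSeq and edgeR and the build GRCm38. The sources used here give no versions, annotation release or counting mode. Lines that name no gene were left out of library sizes: reads in no feature were 3.75 to 5.81% of all counts, ambiguous ones 1.40 to 1.71%, and 30.7 to 42.3% came from alignments at several places. Depth was 13843040 to 22997873 gene counts a library, and all members had at least 165 counts. No pair of replicates agreed within counting noise (lowest chi-square per degree of freedom 1.69). The highest values were 28.5 and 35.8, for 24 h T3 replicate 1 against replicates 2 and 3. Those replicates had 2.62 against each other. The next highest were 15.6 (6 h control replicates 3 and 4) and 14.0 (6 h T3 replicates 1 and 2).

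Counts were fitted with edgeR 4.0.16 (R 4.3.3, limma 3.58.1), with TMM scaling, filterByExpr at a minimum count of 10, and 1 mean per group over all libraries. Contrasts were tested by the quasi-likelihood F test with Benjamini-Hochberg adjustment over 16087 genes and a threshold of 0.05. SE is the log2 fold change divided by the root of F. CPM uses TMM-scaled library sizes, and exon length counts every base in any annotated exon of the gene. DESeq2 1.42.0, other scaling, no filter, lane, replicate blocks, a length and GC correction and left-out libraries were alternatives, and leaving out 24 h control replicates 2 and 4 together was chosen after seeing the data. The code was tested on simulated data.

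The members and lists were chosen with earlier results of these data known. All members are named. Of each other list, up to 4 called genes a comparison with the smallest adjusted p are named, with Klf9, Hr and Dio3 as checks of T3 and, for each member, the 2 genes of most similar pattern.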

Additional observations from a re-analysis of the deposited data

Results flagged for a closer look

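In 24 h control, Pgk1 in replicate 3 had 27.9745 CPM, far from the other replicates, which had 23.02 to 23.35 CPM. In 6 h CHX+T3, Ldha in replicate 3 had 157.813 CPM, against 201 to 205 CPM in the other replicates, and that library was also the lowest of its group for Pgk1, Pkm and Ldhb and had the smallest share of alignments that were not unique (30.7%). These were 2 of 50 groups of 4 libraries examined, and chance sets a library apart in about 1 in 20 such groups. The gap to the nearest library was 0.934 and 0.909 of the whole range, above Dixon's critical value of 0.829.

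The T3 effect on Hk2 differed between cells with and without CHX by −0.70 log2 in the test of that difference. The T3 effect on Slc16a1 differed between 24 h and 6 h by 0.26 log2 in the same kind of test.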

How the results depend on the processing

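No called member or named gene changed direction, while members that were not called could, such as Hk2 for CHX with T3 (−0.20 to 0.14 log2) and Pkm for 24 h against 6 h in T3 (−0.15 to 0.19). Of 2970 values of members under an alternative, 2898 stayed on their side of the threshold, 60 lost a call and 12 gained one. Of 5412 values of other named genes, 150 lost a call. Members called came to 1 with lane as a covariate for T3 with CHX (2 otherwise), and to 6 for 24 h against 6 h in controls (10 otherwise). For the T3 difference by CHX (1 member), DESeq2 and lane each gave 2. For that by time (1 member), DESeq2 and lane gave 2, and no filter, fitting only the groups compared, and leaving out 24 h control replicates 2 and 4 gave 0. Genes called among all tested came to 1017 with the length and GC correction and 1191 with 24 h T3 replicate 1 left out together with 6 h CHX replicate 4 for T3 at 6 h (606 otherwise). For T3 at 24 h (1140) they were 401 with only the groups compared and 642 without 24 h control replicates 2 and 4. For T3 with CHX (208, of which 187 higher and 21 lower) they were 331 by DESeq2, 407 with only the groups compared, 351 with the correction and 660 with lane (326 higher, 334 lower). For 24 h against 6 h, lane gave 4414 in controls (9105) and 5409 in T3 (9259). For the difference by CHX (196) they were 521 by DESeq2, 295 with no filter, 497 with only the groups compared, 966 with lane, 576 with the correction and 331 without 24 h control replicates 2 and 4. For that by time (135) they were 358 by DESeq2, 62 with only the groups compared, 521 with lane, 341 with the correction and 32 without those controls. The causes were not tested.

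Deviations of replicates with the same number in the title had correlations of −0.28 to 0.13 between the groups compared. For replicates with the same letter in the description the correlations were −0.26 to 0.20. Whether such replicates came from the same culture was not tested. With a replicate block by the number in the title the difference by CHX had 381 calls, and with a block by letter 368, and 213 for that by time. Leaving out 1 replicate at a time gave 349 (without 6 h T3 replicate 4) to 989 (without 24 h T3 replicate 1) calls for T3 at 6 h, 810 to 1486 for T3 at 24 h, 138 (without 6 h CHX+T3 replicate 3) to 417 (without 24 h T3 replicate 1) for T3 with CHX, 10426 to 11366 for CHX alone, 10320 to 11341 for CHX with T3, 8396 to 9784 and 8620 to 9339 for 24 h against 6 h in controls and in T3, 30 (without 6 h control replicate 2) to 479 (without 24 h T3 replicate 1) for the difference by CHX and 69 (without 24 h control replicate 2) to 350 (without 24 h T3 replicate 3) for that by time. Members called were 2 to 3, 4 to 6, 2, 9, 9, 9 to 10, 8 to 9, 1 and 0 to 2 in the same order. Counts of members were not limited by depth, but Pgk1, Pkm, Ldha and Ldhb lose reads that align to more than 1 place.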

Other observations

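A few genes of glycogen metabolism and of the list of known hypoxia-inducible targets outside glycolysis were called with T3, where 3.77% of all genes tested were called at 6 h and 7.09% at 24 h. Of 14 glycogen genes, 1 rose and 1 fell at 6 h and 2 rose at 24 h, with medians of 0.03 and 0.02 log2. The branching enzyme gene Gbe1 rose at 6 h and 24 h (0.30 ± 0.05 and 0.42 ± 0.06 log2, SE, adjusted p = 0.00122 and 1.84e-05), Ppp1r3c, a subunit that targets a phosphatase to glycogen, rose at 24 h (0.29 ± 0.07, 0.0102), and the brain glycogen phosphorylase gene Pygb fell at 6 h by 0.22 ± 0.04 log2 (0.00319). Of 15 hypoxia-inducible targets, 5 rose and 1 fell at 6 h, led by Vegfa (0.76 ± 0.09, 9.89e-06) and P4ha1 (0.38 ± 0.06, 0.000449), and 3 rose and 1 fell at 24 h, led by P4ha1 (0.57 ± 0.07, 2.35e-06). The median of that list was 0.24 log2 at 6 h and 0.09 at 24 h, against 0.003 and 0.004 over all genes tested. Of 9 regulators of glycolytic genes, Epas1, which encodes HIF-2 alpha, rose at 6 h and 24 h (0.58 ± 0.11 and 0.86 ± 0.11, adjusted p = 0.00162 and 8.08e-06), and Txnip, an inhibitor of glucose uptake, fell at 6 h by 0.25 ± 0.06 log2 (0.0181). The Txnip call was lost without 6 h control replicate 2 (0.101), 6 h T3 replicate 1 (0.055) or 6 h T3 replicate 4 (0.101). With CHX, edgeR and DESeq2 each called 0 of the regulators and 0 of the glycogen genes for T3, and 0 and 4 of them had an unadjusted p under 0.05. Of the 15 hypoxia-inducible targets, edgeR called 1 higher and 0 lower for T3 with CHX, where 1.29% of all genes tested were called. Their median was 0.03 log2.

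Of 14 genes for the fate of pyruvate in mitochondria, Pdhb and the pyruvate carrier gene Mpc1 rose at 24 h (0.31 ± 0.06 and 0.44 ± 0.11 log2, adjusted p = 0.00231 and 0.0145, and 0.0675 and 0.0615 when only the groups compared were fitted). Pdk4, which inhibits pyruvate dehydrogenase, fell by 0.33 ± 0.09 log2 (0.0298), and was at −0.24 without 24 h T3 replicate 1 (0.161). These 2 rises and 1 fall were the calls of that list, where 7.09% of all genes tested were called at 24 h. Of 8 pentose phosphate genes, edgeR and DESeq2 called 0 for T3 at 6 h, at 24 h and with CHX, and 1, 0 and 0 had an unadjusted p under 0.05. CHX alone was followed by higher Txnip (2.51 ± 0.06), Arrdc4 (3.19 ± 0.07) and Myc (1.93 ± 0.13).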
